A study of Mus musculus with 10 samples.

Results

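A set of 31 genes of cholesterol synthesis, of its control by the transcription factor SREBP2, and of cholesterol uptake and efflux were followed across colon RNA of 10 mouse libraries. They were chosen by name from a table of 18398 genes, and 31 of 31 were found in it. Mean levels reached at least 1 FPKM (fragments scaled by gene length and by the library's mapped fragments, the authors' unit) in 30 of them, and these 30 entered the tests. The exception was Npc1l1. The libraries came from wild-type mice, 5 on a normal diet and 5 on a diet described as pro-inflammatory. Strain, age, sex, diet composition, time of day at tissue collection and colon segment are not stated in the labels. Nor do the labels say whether each library is a separate animal, so the p-values measure the spread between these libraries. The comparison asks whether the colon's transcripts differ between the diets.

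Cells make cholesterol from acetyl-CoA. The mevalonate pathway builds isoprenoid units, which are joined into squalene, closed into lanosterol and then trimmed and rearranged into cholesterol. When sterols in the endoplasmic reticulum are scarce, the escort protein SCAP carries SREBP2 to the Golgi, where it is cut and released to switch on most genes of the pathway. INSIG proteins hold SCAP back when sterols are plentiful. An excess of oxidised sterols activates the liver X receptors (LXR), whose targets include exporters such as ABCA1, ABCG1 and the ABCG5 and ABCG8 pair. The intestine both takes up cholesterol from food and bile and makes its own. Dbp, set beside each member here, encodes a transcription factor whose mRNA is driven by the circadian clock.

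Promoter sequence is shown for 4 members whose values differ in kind, with the 109 bases between the starts of Abcg5 and Abcg8, because those 2 genes moved together between libraries. The windows are the 250 bases before the RefSeq start (GRCm38.p6, the assembly also called mm10). They are read on the gene's own strand. Hmgcs1 (chr13:119690101-119690350, plus strand), Mvk (chr5:114444019-114444268, plus) and Insig1 (chr5:28071162-28071411, plus) varied 3-fold or more between libraries, whereas Ggps1 (chr13:14063489-14063738, minus) varied least among the synthesis genes. The stretch between Abcg5 and Abcg8 (chr17:84683012-84683120) is read on the plus strand, that of Abcg8. Capitals mark a sterol regulatory element of the letters TCACNCCAC (Hmgcs1), the CCAAT box (Hmgcs1, Mvk, Insig1 and Ggps1, CCAAT or its reverse complement) and the E-box CACGTG (Insig1).
Hmgcs1: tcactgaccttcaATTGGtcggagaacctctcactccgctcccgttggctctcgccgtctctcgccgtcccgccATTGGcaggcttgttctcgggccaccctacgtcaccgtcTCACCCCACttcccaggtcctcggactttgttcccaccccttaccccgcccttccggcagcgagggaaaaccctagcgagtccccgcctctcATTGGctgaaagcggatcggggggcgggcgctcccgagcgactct
Mvk: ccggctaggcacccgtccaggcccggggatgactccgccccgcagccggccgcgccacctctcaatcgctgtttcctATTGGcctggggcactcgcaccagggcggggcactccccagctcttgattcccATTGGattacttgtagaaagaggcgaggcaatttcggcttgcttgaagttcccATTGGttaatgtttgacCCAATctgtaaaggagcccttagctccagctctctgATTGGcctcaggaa
Insig1: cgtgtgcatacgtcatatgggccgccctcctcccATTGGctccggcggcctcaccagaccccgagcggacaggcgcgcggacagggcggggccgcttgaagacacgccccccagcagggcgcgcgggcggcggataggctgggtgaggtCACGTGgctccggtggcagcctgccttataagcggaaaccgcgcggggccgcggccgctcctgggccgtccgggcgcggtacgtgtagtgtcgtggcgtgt
Ggps1: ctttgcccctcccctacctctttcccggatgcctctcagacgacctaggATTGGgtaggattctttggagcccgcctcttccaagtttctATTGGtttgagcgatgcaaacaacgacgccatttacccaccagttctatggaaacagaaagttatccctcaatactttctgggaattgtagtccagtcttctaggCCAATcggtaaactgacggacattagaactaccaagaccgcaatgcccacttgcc
Abcg5/Abcg8: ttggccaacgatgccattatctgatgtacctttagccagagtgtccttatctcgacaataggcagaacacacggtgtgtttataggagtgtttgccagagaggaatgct

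RefSeq windows were matched for 25 of the 31 genes, 32 windows in all, and 4 motifs were searched on both strands. None of the motifs contains another. The CCAAT box, bound by NF-Y, lay in windows of 21 of the 25 genes, in 21 of their 32 windows, and in 33.9% of all 32851 windows. Mvk held 5 of them and flat Ggps1 held 3. The sterol regulatory element as spelled above lay in Hmgcs1 alone (1.05% of all windows), with its first base at position -137 from the start. The E-box lay in windows of 6 genes, namely Abca1, Dhcr7, Hsd17b7, Insig1, Sc5d and Scap (6 of the 32 windows, and 6.02% of all windows). The D-box TTANGTAA, a form of the element that DBP binds, lay in windows of 0 of the 25 genes (2.06% of all windows). Motif matches are letters in a window, and no match says only that these letters are not there.

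Dividing each gene's FPKM by its value per read gave whole reads, within 0.001, for 18398 of 18398 genes, and thus 15652783 to 18341956 reads on genes per library. Some libraries stood apart in ways that touch the members. Normal diet libraries 1, 2 and 3 held the lowest Dbp, at 1.79, 3.29 and 6.69 FPKM. The other 7 held 12.4 to 54.3. Pro-inflammatory diet libraries 2 and 5 held the distal colon gene Hoxb13 at 0.417 and 20.9 FPKM, against 211 to 341 in the other 8, and the colonic carbonic anhydrase Car1 at 3568 and 2334 against 165 to 845. Normal diet library 4 held Sis, the sucrase-isomaltase of small intestinal enterocytes, at 17.6 FPKM, against 0.0919 to 4.12 elsewhere. The small intestinal genes Lct, Anpep, Mttp, Apoa1 and Apoa4 were also highest in that library. Fabp6, Slc10a2 and Alpi were highest in pro-inflammatory diet libraries 2 or 5. The sum over these 9 genes, picked after values were seen, was 316 FPKM in normal diet library 4. In pro-inflammatory diet libraries 2 and 5 it was 474 and 207, and in the other 7 libraries 16.9 to 57.2. Fabp6 alone held 156 FPKM in normal diet library 4 and 405 and 125 in pro-inflammatory diet libraries 2 and 5. Epithelial markers such as Epcam and Krt8 (15 of 15 measured, Car1 among them, none at 0 throughout) summed to 7370 to 9779 FPKM under the normal diet against 8928 to 12498 under the pro-inflammatory one. Smooth muscle markers (15 of 15) summed to 3188 to 4677 and 2785 to 3777. The part of these differences in the results below was not tested unless a value is given. In whole tissue, fewer cells of a type and less RNA per cell cannot be told apart.

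Most synthesis genes had higher means on the pro-inflammatory diet, with median log2 fold changes of 0.77 over the mevalonate and 0.78 over the squalene and lanosterol steps, but no member passed the threshold. Within the mevalonate step the values ran from -0.03 (Ggps1) through 0.39 (Pmvk) to 0.86. In limma with Benjamini-Hochberg adjustment over 12345 genes, 0 of 30 members and 0% of all genes were called. Voom on whole reads also called 0. At an unadjusted p under 0.05, 1007 genes were higher, 8.16% of those tested, and 1142 were lower. Of the 30 members, 9 were among the higher ones, namely Mvk, Mvd, Idi1, Fdps, Fdft1, Lss, Cyp51, Nsdhl and Abcg1. These genes vary together from library to library and are not independent observations. Of the 30 members, 25 had higher and 5 lower fitted values on the pro-inflammatory diet, with a median log2 fold change of 0.35, against -0.01 over all genes (47.1% higher). The members' median was 0.54 without normal diet library 4 and -0.03 without normal diet libraries 1, 2 and 3. Log2 fold changes are on the log2(FPKM + 1) scale, pro-inflammatory minus normal diet.

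In most variable members the spread within the normal diet was as large as the difference between the diets. The means were 77.8 ± 55.5 FPKM under the normal and 117 ± 31.3 under the pro-inflammatory diet for Hmgcs1, 10 ± 5.76 and 16.4 ± 2.87 for Mvk, and 42.7 ± 32.9 and 63.1 ± 18.2 for Sqle (SD, n = 5 each). For Lss they were 7.97 ± 6.37 and 13.9 ± 3.23 FPKM, for Msmo1 56.2 ± 37.9 and 75.3 ± 22.3, for Nsdhl 15.1 ± 6.47 and 23.9 ± 4.98, and for Sc5d 20.1 ± 4.62 and 22.8 ± 2.34. The SDs of these 7 genes were smaller under the pro-inflammatory diet, a difference that was not tested. Of the regulators and carriers, Srebf2 was at 42.8 ± 4.9 and 48.1 ± 4.44 FPKM, Insig1 at 34.5 ± 14.9 and 46.8 ± 13.6, Insig2 at 6.26 ± 0.145 and 7.12 ± 1.62, and Stard4 at 42.3 ± 11.8 and 51 ± 5.87. The enzymes Ggps1 and Ebp, with similar means on both diets, were at 6.94 ± 0.45 and 6.75 ± 0.569, and at 52.7 ± 2.54 and 51.4 ± 9.43. Among the LXR targets, Abcg1 was at 1.81 ± 0.338 and 2.99 ± 0.629 FPKM, Abcg5 at 7.38 ± 3.15 and 7.41 ± 6.25, Abcg8 at 1.64 ± 0.749 and 1.79 ± 1.36, and Mylip at 12.3 ± 3.85 and 13.2 ± 2.55.

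**Figure D1:**
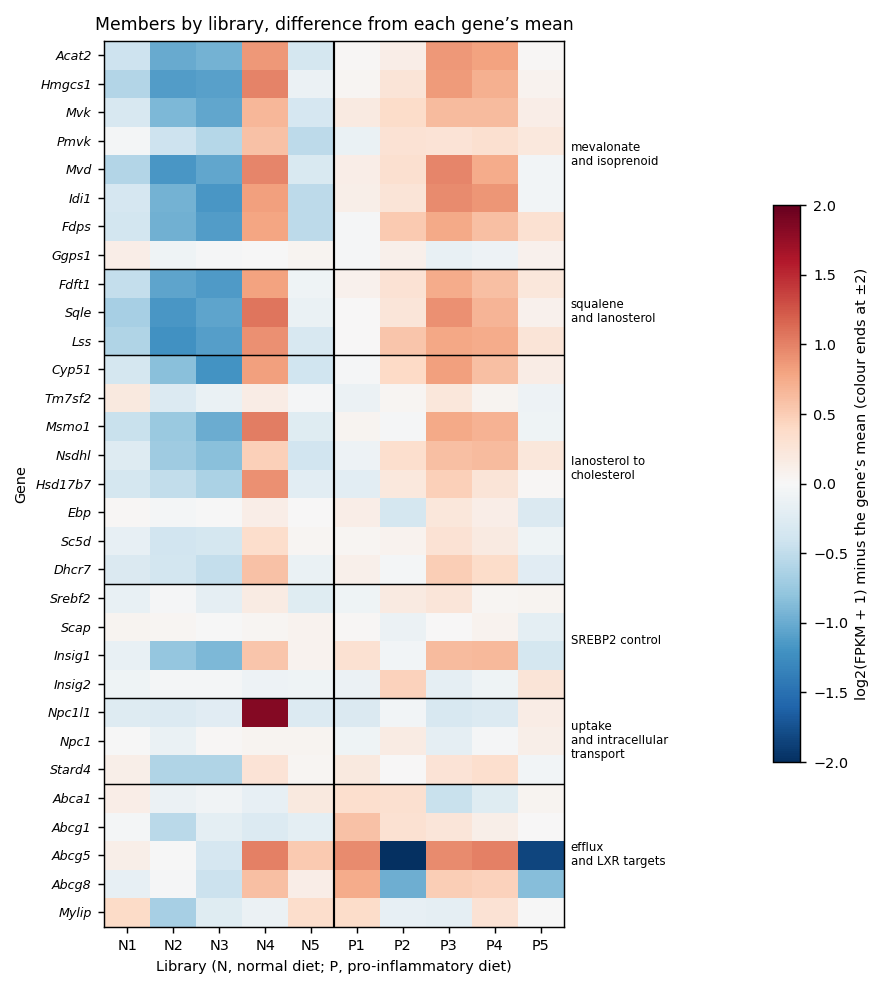
Each cell is the log2(FPKM + 1) of a gene (row, grouped by pathway step) in a library (column; N1 to N5, normal diet; P1 to P5, pro-inflammatory diet) minus that gene's mean over the 10 libraries; the colour scale ends at ±2. Most synthesis genes are low in N2 and N3 and high in N4, P3 and P4, while Ggps1, Tm7sf2, Ebp and Scap stay near 0 and Abcg5 and Abcg8 are low in P2 and P5.

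The mevalonate and isoprenoid genes had a median log2 fold change of 0.77 over 8 members, 7 of them higher. Hmgcs1, the cytosolic HMG-CoA synthase (chromosome 13, 119690379 to 119708260), was at 57.2, 39.5, 40.1, 173 and 79.3 FPKM in normal diet libraries 1 to 5. On the pro-inflammatory diet it was at 88.9, 103, 157, 142 and 90.7. Library 4 of the normal diet was thus the highest of all 10, and the other 4 of that diet lay below every pro-inflammatory library. The groups overlapped through library 4, which was set apart here after its values were seen. The share of all genes arranged this way was not counted. The log2 fold change of Hmgcs1 was 0.77 (SE 0.37, limma adjusted p = 0.311). Mvk, mevalonate kinase (chromosome 5, 114444269 to 114460591), showed the same arrangement, with 9.54, 6.07, 5.44, 19.8 and 9.4 FPKM against 13.9, 15.9, 19.4, 19.5 and 13.5 (log2 fold change 0.78, SE 0.28, limma adjusted p = 0.215). Acat2, which joins acetyl-CoA units and has a close copy in Acat3 with which reads could be shared, was at 12.9 ± 8.61 FPKM under the normal diet against 20.3 ± 6.54 under the pro-inflammatory one (means with SD, as in the pairs that follow). Mvd, the decarboxylase that makes isopentenyl diphosphate, was at 18.3 ± 13.8 against 29.7 ± 9.28, and the isomerase Idi1 at 12.5 ± 8.55 against 21.3 ± 7.19. Fdps, which makes farnesyl diphosphate, was at 43.9 ± 27.8 against 72.5 ± 14.7 FPKM. Pmvk, phosphomevalonate kinase, moved less, at 6.07 ± 2.69 against 7.85 ± 1.04.

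Ggps1 diverts farnesyl diphosphate into geranylgeranyl diphosphate for protein prenylation, away from sterols. It was at 7.6, 6.41, 6.74, 6.8 and 7.13 FPKM under the normal diet against 6.68, 7.39, 6.09, 6.34 and 7.28 under the pro-inflammatory one. The groups overlapped throughout, and its highest library was only 1.25 times its lowest. Hmgcs1 had a 4.37-fold range over the same libraries.

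Squalene and lanosterol genes had the widest range between libraries of any synthesis step, a median of 4.89-fold between the lowest and the highest. Sqle, squalene epoxidase (chromosome 15, 59315077 to 59331192), was at 29.1, 20.3, 22, 99.4 and 42.6 FPKM in the normal diet libraries and at 46.8, 55, 88.6, 75.6 and 49.4 in the pro-inflammatory ones. Its log2 fold change was 0.77 (SE 0.39, limma adjusted p = 0.33). Lss, lanosterol synthase (chromosome 10, 76531588 to 76557138), was at 5.93, 3.55, 3.9, 19 and 7.46 FPKM against 9.61, 14.6, 17.1, 16.6 and 11.6, the highest log2 fold change among the members at 0.93 (SE 0.36, limma adjusted p = 0.235). In both genes normal diet library 4 was the highest of all, and the other 4 normal diet libraries lay below every pro-inflammatory one. The groups therefore overlapped in both, and the share of all genes arranged this way was not counted. Fdft1, squalene synthase, was at 12.8 ± 8.41 against 20.1 ± 4.06 FPKM. Its annotated span overlaps Ctsb on the opposite strand by 774 bases, and no source used here says whether reads were counted by strand. Opposite-strand genes also overlap 166 bases of Cyp51, 257 of Ggps1, 737 of Dbp and 967 of Npc1. On the opposite strand Gm20388 overlaps 9822 bases of Mvd, its whole span. Fdps shares 7512 bases with Gm43738 on the same strand. The levels of these genes are uncertain to that extent.

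The steps from lanosterol to cholesterol were less even, with a median log2 fold change of 0.29 over 8 members, 7 of them higher. Msmo1, the methylsterol oxidase (chromosome 8, 64718139 to 64733792), was at 43.5, 35.2, 29.5, 122 and 50.5 FPKM against 62, 59.1, 102, 97.4 and 56.2 (log2 fold change 0.56, SE 0.35, limma adjusted p = 0.401). Nsdhl, which removes the oxidised methyl carbon (chromosome X, 72918557 to 72958514), was at 15.1, 10.8, 9.78, 26 and 13.8 FPKM against 17.1, 23.4, 28.5, 29 and 21.6. Its log2 fold change was 0.69 (SE 0.24, limma adjusted p = 0.206). Sc5d, the sterol desaturase (chromosome 9, 42251595 to 42264256), had a smaller range, at 18.9, 16.1, 16.5, 27.3 and 21.9 FPKM against 21.9, 22.3, 26, 24.2 and 19.9, with overlapping groups (log2 fold change 0.20, SE 0.14, limma adjusted p = 0.449). Cyp51, the lanosterol demethylase, was at 28.2 ± 17.7 against 44.5 ± 10.6 FPKM, and Dhcr7, which reduces the last double bond, at 24.9 ± 8.75 against 29.7 ± 6.16. Hsd17b7, a sterol ketoreductase, was at 5.29 ± 3.3 against 6.24 ± 1.26.

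Tm7sf2 and Ebp, in the same stretch, varied less than most synthesis genes. The 1.5-fold range of Ebp was near the median of 1.54-fold over all tested genes. Tm7sf2, a sterol reductase, was at 12 ± 1.73 FPKM under the normal diet against 12.2 ± 1.3 under the pro-inflammatory one, with a 1.44-fold range. Ebp, the sterol isomerase, was at 50.4 to 57.1 FPKM in the normal diet libraries and at 56.9, 40.4, 60.7, 57 and 42 in the pro-inflammatory ones. Its 2 lowest values lay in pro-inflammatory diet libraries 2 and 5, the pair with low Hoxb13. The share of all genes with their 2 lowest values there was not counted. Tm7sf2 shares 532 bases with Vps51 on the same strand, so its level is uncertain.

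The genes that govern the pathway, Insig1 excepted, had narrower ranges between libraries than most synthesis genes, with a median of 1.53-fold over the 4. Srebf2, which encodes SREBP2 (chromosome 15, 82147181 to 82205379), was at 40.8, 44.6, 39.8, 50.5 and 38.3 FPKM against 42.3, 51.6, 53.5, 46.5 and 46.8, a 1.4-fold range with overlapping groups (log2 fold change 0.17, SE 0.09, limma adjusted p = 0.341). Scap was at 18.1 ± 0.37 against 17.1 ± 1.36 FPKM. Insig1, itself an SREBP2 target (chromosome 5, 28071363 to 28078662), was at 34.4, 21.9, 19.9, 56.4 and 40 FPKM against 47.5, 36.7, 59.4, 60.5 and 29.7. It followed the synthesis genes in being low in normal diet libraries 2 and 3 and high in normal diet library 4 and pro-inflammatory libraries 3 and 4 (log2 fold change 0.48, SE 0.29, limma adjusted p = 0.399). Insig2 took another course, at 6.1 to 6.44 FPKM in the normal diet libraries and 6.06, 9.5, 5.72, 6.21 and 8.1 in the pro-inflammatory ones. Its 2 highest libraries were again the pair with low Hoxb13. Insig2 and Ebp were singled out after their values were seen. The share of all genes with extreme values in that pair was not counted.

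**Figure D2:**
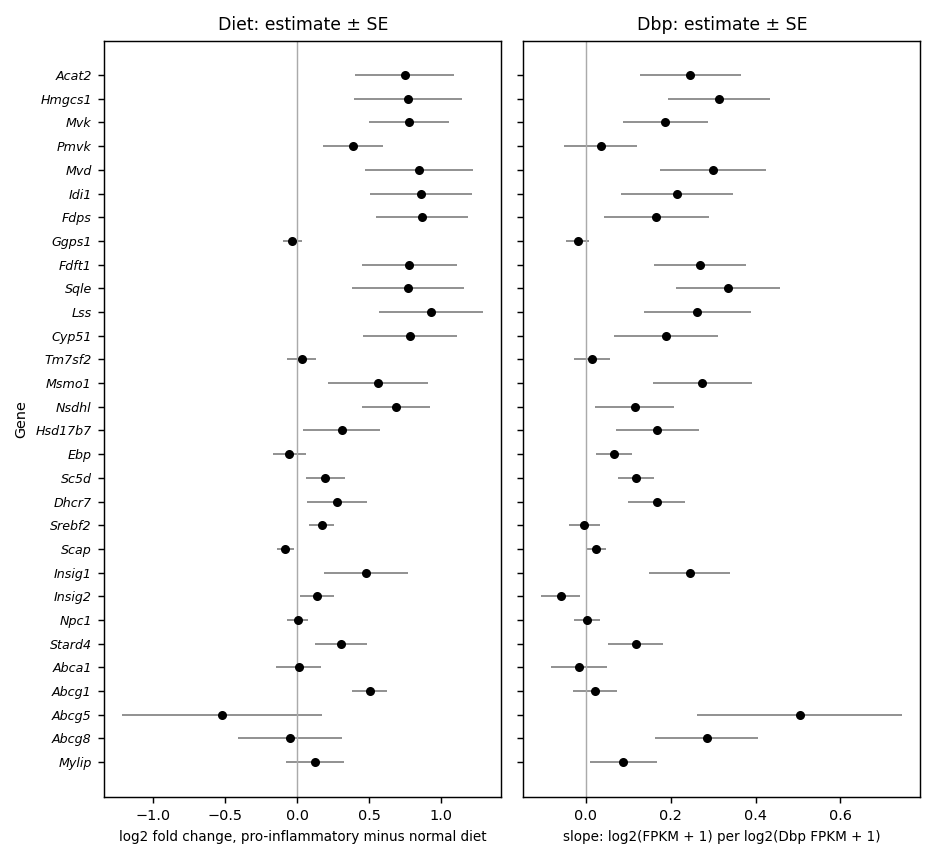
For each of the 30 tested genes, in pathway order, the left panel gives the fitted log2 fold change (pro-inflammatory minus normal diet) and the right panel the slope on Dbp (change in log2(FPKM + 1) per unit of log2(Dbp FPKM + 1), with diet in the model); points are estimates and bars ±1 SE. Most synthesis genes lie right of 0 in both panels, Ggps1 and Ebp lie at or just left of 0 in the left panel, and Abcg5 has the widest bars.

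Uptake and intracellular transport genes showed no common shift. Npc1l1, the intestinal cholesterol importer (chromosome 11, 6211013 to 6230143), was at 3.44 FPKM in normal diet library 4, from 277 reads. In the other normal diet libraries it was at 0.0399, 0.0279, 0.0611 and 0.0363, from 2 to 5 reads each. On the pro-inflammatory diet libraries 2 and 5 held 0.2 and 0.385 FPKM (16 and 28 reads), libraries 1 and 4 held 2 reads each, and library 3 held 0 reads, a count that allows up to 3. A single library thus carried most Npc1l1 reads, and the gene, under the filter, was not tested. The same library held the highest values of the small intestinal genes Sis (17.6 FPKM), Lct, the lactase (1.47, against 0.0555 or less elsewhere), and Anpep, an aminopeptidase (41 against 5.1 to 9.94). Of the same 9-gene list, Mttp was also highest there (6.59 FPKM, 1.78 or less elsewhere). So were Apoa1 (79, 31.3 or less elsewhere) and Apoa4 (3.2, 1.32 or less elsewhere). The remaining genes of the list did not peak there. Fabp6, the ileal bile acid binding protein, was at 156 FPKM in that library against 405 in pro-inflammatory diet library 2. Slc10a2, the ileal bile acid transporter, was at 8.03 against 39.5 and 40.7 in pro-inflammatory diet libraries 2 and 5, and Alpi, the intestinal alkaline phosphatase, at 2.79 against 19.6 and 25.4. Npc1, which exports cholesterol from lysosomes, was at 10.8 ± 0.639 against 10.8 ± 1.15 FPKM. Stard4, a soluble sterol carrier and SREBP2 target (chromosome 18, 33199355 to 33213862), was at 49.6, 29.8, 29.6, 55.2 and 47 FPKM against 52.5, 46.1, 55.2, 57.6 and 43.9, lowest in normal diet libraries 2 and 3 (log2 fold change 0.31, SE 0.18, limma adjusted p = 0.382).

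Among efflux genes and other LXR targets, Abcg1 was the member whose values did not overlap between the diets, although it did not pass. Abcg1, which moves cholesterol to lipoproteins (chromosome 17, 31057675 to 31117988), was at 2.21, 1.28, 1.89, 1.75 and 1.89 FPKM in the normal diet libraries and 3.99, 3.09, 2.91, 2.59 and 2.35 in the pro-inflammatory ones. Every pro-inflammatory value lay above every normal one. Its log2 fold change was 0.50 (SE 0.12, limma adjusted p = 0.166), and 0.49 (SE 0.16, limma adjusted p = 0.877) without normal diet libraries 1, 2 and 3. Groups failed to overlap in this direction for 1 of 30 members and for 1.77% of all tested genes. In the lower direction the figures were 0 of 30 and 2.07%. Macrophage markers (14 of 14 measured, none at 0 throughout) summed to 286 to 397 FPKM under the normal diet against 277 to 484 under the pro-inflammatory one, so those groups overlapped. T cell markers (7 of 9 measured) summed to 7.27 to 12.3 and 9.97 to 34 FPKM, and adipocyte markers (12 of 12) to 90.1 to 279.5 and 95.9 to 449. Their part in the Abcg1 values was not tested.

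Abca1, the exporter to apolipoprotein A-I, was at 4.6 ± 0.627 FPKM under the normal diet against 4.73 ± 1.32 under the pro-inflammatory one. Mylip, a ubiquitin ligase that marks lipoprotein receptors for degradation (chromosome 13, 45389742 to 45412022), was at 16.4, 7.47, 10.3, 11.4 and 16.1 FPKM against 16.4, 11, 10.9, 15.4 and 12.3. These 2 LXR targets overlapped widely between the diets (Mylip log2 fold change 0.12, SE 0.20, limma adjusted p = 0.761).

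Abcg5 and Abcg8, the subunits of the exporter that returns sterols to the gut lumen, were lowest in the 2 libraries with low Hoxb13, both of the pro-inflammatory diet. Abcg5 was at 6.2, 5.61, 4.24, 12.3 and 8.58 FPKM against 11.8, 0.284, 11.8, 12.3 and 0.86. Abcg8 (chromosome 17, 84676302 to 84700333) was at 1.25, 1.48, 0.865, 2.84 and 1.77 FPKM against 3.23, 0.274, 2.56, 2.46 and 0.402. Pro-inflammatory diet libraries 2 and 5 lay below all others in both genes, and the range over the 10 libraries was 43.3-fold for Abcg5 and 11.8-fold for Abcg8. The log2 fold changes were -0.52 (SE 0.69) for Abcg5 and -0.05 (SE 0.36, limma adjusted p = 0.951) for Abcg8. Without libraries 2 and 5 they were 0.71 (SE 0.26, limma adjusted p = 0.271) and 0.54 (SE 0.21, limma adjusted p = 0.286). The genes lie head to head, with the starts printed above 109 bases apart, and their annotated spans overlap by 6710 bases on opposite strands, so reads could be shared if counting ignored the strand. Abcg5 was singled out after its values were seen. The share of all genes lowest in pro-inflammatory diet libraries 2 and 5 was not counted.

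**Figure D3:**
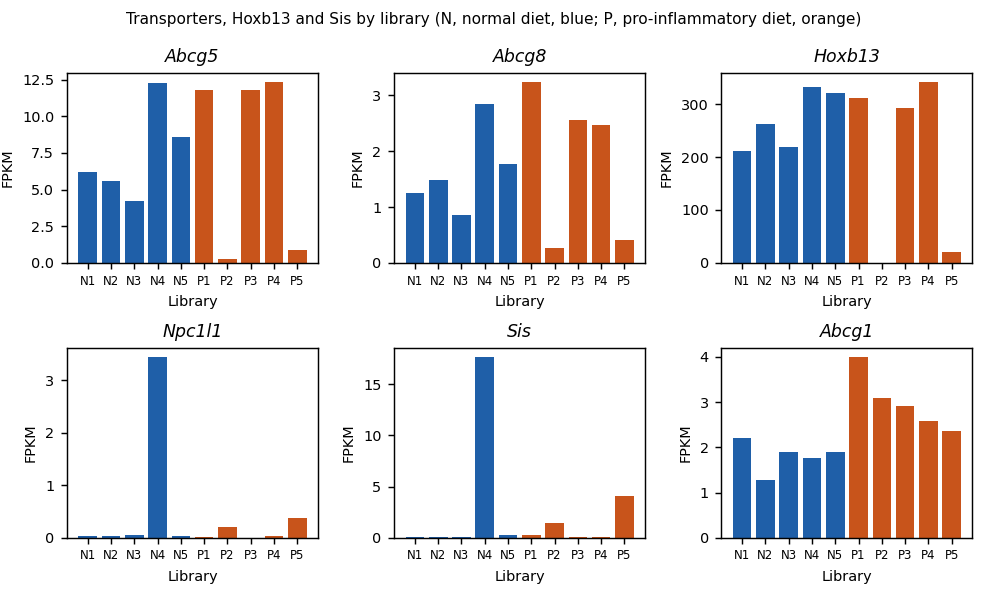
Bars are FPKM per library (N1 to N5, normal diet, blue; P1 to P5, pro-inflammatory diet, orange), one panel per gene, each with its own axis from 0. Abcg5 and Abcg8 are near 0 in P2 and P5, as is Hoxb13; Npc1l1 and Sis peak in N4; every Abcg1 bar of the pro-inflammatory diet exceeds every bar of the normal diet.

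Dbp (chromosome 7, 45705088 to 45710203) was at 1.79, 3.29, 6.69, 35.4 and 42.6 FPKM in normal diet libraries 1 to 5 and at 54.3, 12.4, 33.5, 39 and 20.2 in the pro-inflammatory ones, with overlapping groups (log2 fold change 1.44, SE 0.77, limma adjusted p = 0.346). The relation to Dbp was fitted in each gene with diet in the model, so that the slope compares libraries of the same diet. A slope is the change in log2(FPKM + 1) per unit of log2(Dbp FPKM + 1). Of the 30 members, 26 had positive slopes, with a median of 0.17, against -0.0007 over all genes. None of the 30 passed in limma after adjustment over 12344 genes, where 2 genes (0.0162%) did, Ciart and Tef, both clock genes. Voom also called 2 genes and 0 members. At an unadjusted p under 0.05, 464 genes had positive and 581 negative slopes. Of the 30 members, 9 had a positive slope with an unadjusted p under 0.05, compared with 3.76% of all genes. They were Hmgcs1, Mvd, Fdft1, Sqle, Msmo1, Sc5d, Dhcr7, Insig1 and Abcg8. Sqle had a slope of 0.33 (SE 0.12, limma adjusted p = 0.552), Hmgcs1 one of 0.31 (SE 0.12, limma adjusted p = 0.556) and Insig1 one of 0.24 (SE 0.09, limma adjusted p = 0.557). By step, the median slope was 0.27 for squalene and lanosterol, 0.20 for mevalonate and isoprenoid, 0.14 for lanosterol to cholesterol and 0.01 for SREBP2 control. Srebf2 itself had a slope of -0.003 (SE 0.04, limma adjusted p = 0.99). A single library weighed on these values: without normal diet library 4 the members' median slope was 0.061.

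The remaining members shown by library had smaller or less certain slopes. Msmo1 had 0.27 (SE 0.12, limma adjusted p = 0.587), Lss 0.26 (SE 0.13), Mvk 0.19 (SE 0.10) and Nsdhl 0.12 (SE 0.09, limma adjusted p = 0.731). Sc5d had a small slope with a small error, 0.12 (SE 0.04, limma adjusted p = 0.552), the lowest adjusted p of the members together with Sqle. Stard4 had 0.12 (SE 0.07, limma adjusted p = 0.658) and Mylip 0.09 (SE 0.08, limma adjusted p = 0.762). Among the exporters, slopes were 0.50 (SE 0.24, limma adjusted p = 0.606) for Abcg5 and 0.28 (SE 0.12, limma adjusted p = 0.587) for Abcg8. Abcg1 had 0.02 (SE 0.05, limma adjusted p = 0.926) and Abca1 -0.02 (SE 0.07, limma adjusted p = 0.96). Differences between these slopes were not tested. Pro-inflammatory diet libraries 2 and 5, lowest in Abcg5 and Abcg8, had the lowest Dbp of their diet and low Hoxb13. Dbp and Hoxb13 cannot be told apart within that diet. The adjusted p was 0.606 for Lss and 0.641 for Mvk in limma.

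Library by library, the members followed Dbp only in part. The 3 libraries with the lowest Dbp, normal diet 1, 2 and 3, were also the 3 lowest for 10 of the 31 members, and for 2.88% of all tested genes. These 10 were all synthesis genes, and the count was 0 in the control, transport and efflux steps. Because the 3 libraries share a diet, Dbp and diet cannot be told apart in this count. Within these 3, Hmgcs1 was highest (57.2 FPKM) in library 1, which had the lowest Dbp. Normal diet library 5 held 23.8 times the Dbp of library 1, yet its synthesis genes stood at a median of 1.05 times those of library 1, from 0.67 to 1.47 over 19 genes. Libraries 4 and 5 of the normal diet had similar Dbp (35.4 and 42.6 FPKM), while library 4 exceeded library 5 by a median of 2.33-fold in the 19 synthesis genes. On the pro-inflammatory diet library 1 had the highest Dbp (54.3 FPKM) and the lowest value of the 5 in 10 of the 19 synthesis genes. Library 5, with Dbp at 20.2, held the lowest value in 7 of the 19. Libraries 3 and 4, with Dbp at 33.5 and 39, held the highest value of the 5 in 18 of the 19. These orders were not counted over all genes, and genes that vary together share them.

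**Figure D4:**
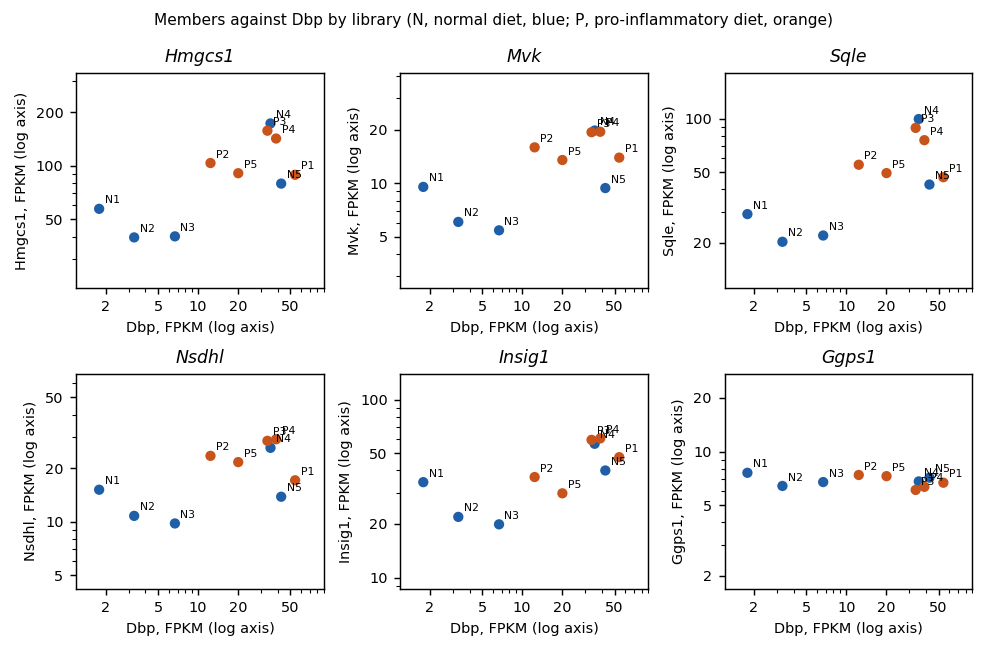
Each point is a library (N1 to N5, normal diet, blue; P1 to P5, pro-inflammatory diet, orange), with its Dbp on the x axis and the named gene on the y axis, both in FPKM on log axes spanning the same number of folds in each panel. N1 to N3 lie low in the panels of variable genes, N4, P3 and P4 lie high, N5 and P1 have high Dbp with middling values, and Ggps1 is flat.

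Without normal diet libraries 1, 2 and 3 the median slope of the members was 0.03, and Hmgcs1 and Sqle had slopes of 0.03 each. In that fit Abcg5 and Abcg8 were called with positive slopes of 1.91 (SE 0.34, limma adjusted p = 0.0238) and 0.94 (SE 0.19, limma adjusted p = 0.031), as were 4.63% of all genes. Its 2 libraries with the lowest Dbp were pro-inflammatory diet 2 and 5, at 12.4 and 20.2 FPKM, the same 2 with low Hoxb13, so Dbp and Hoxb13 cannot be told apart there. The diet difference of the members also changed in this subset: the median log2 fold change was -0.03, with Hmgcs1 at -0.05, Sqle at -0.09, Mvk at 0.23 (0.78 over all libraries) and Nsdhl at 0.29 (0.69 over all libraries). With Dbp as a covariate over all 10 libraries, the members' median was 0.17 and that of the lanosterol to cholesterol step 0.05. In that fit Lss was at 0.55, Nsdhl at 0.52, Mvk at 0.51, Hmgcs1 at 0.32, Sqle at 0.29, Msmo1 at 0.17, Insig1 at 0.12 and Sc5d at 0.03. No member was called in either fit.

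Other genes of cholesterol handling, 41 listed and 38 tested, were split evenly between the diets, with 19 higher and 19 lower, a median log2 fold change of 0.03 and 0 called. The 3 with the smallest p were Soat1, Tmem97 and Scarb1. Soat1, which esterifies cholesterol for storage, was at 16.5 ± 1.16 FPKM under the normal diet against 11.3 ± 2.01 under the pro-inflammatory one, without overlap (14.6 to 17.6 against 9.35 to 14.2; log2 fold change -0.52, SE 0.11, limma adjusted p = 0.151). Tmem97, the sigma-2 receptor, was at 31.9 ± 8.09 against 47.1 ± 7.72 FPKM, and Scarb1, a receptor for high-density lipoprotein, at 6.84 ± 0.522 against 8.12 ± 0.554. On Dbp the smallest p values were those of Rnf145, a ubiquitin ligase (slope 0.16, SE 0.03), Vldlr, a lipoprotein receptor (-0.15, SE 0.04), and Nceh1, a cholesteryl ester hydrolase (-0.13, SE 0.06). None of these passed (limma adjusted p = 0.494 for Rnf145).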

How the data were processed

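RNA-seq of mouse colon was deposited by the authors as FPKM per gene for 10 libraries, 5 per diet, and FPKM is a level scaled by gene length and by mapped fragments. Per the submitters' processing notes, Trimmomatic, HISAT2, Bowtie2, HTSeq, Cufflinks, StringTie, DESeq and the mm10 genome were used. Their roles and the strand setting of counting are not given in the sources used here. Per the labels' protocols, libraries came from poly-A selected RNA with a strand-preserving kit.

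limma 3.58.1 (R 4.3.3) was run on log2(FPKM + 1) of genes with a mean of at least 1 FPKM, with a variance trend and Benjamini-Hochberg adjustment over all of them at 0.05. One fit had diet, the other diet and log2(Dbp FPKM + 1), leaving Dbp itself out. A pseudocount of 1 understates changes of low genes. Whole reads were recovered from the FPKM steps for voom. The fits were tested on simulated data. Means with SD are given for all tested members. Values by library are given for up to 3 members per step, those with the highest mean FPKM and the smallest unadjusted p in either fit. Npc1l1, under the filter, is shown too. Ggps1, Abcg5, Ebp and Insig2 were added after their values were seen, Ggps1 for being flat and the others for standing apart in pro-inflammatory diet libraries 2 and 5. The 3 other cholesterol genes with the smallest p in each fit are named too. The members and lists were chosen with earlier results of these data known. Counting error at this depth is small for most members, but Npc1l1 and, in pro-inflammatory diet libraries 2 and 5, Abcg5 and Abcg8 rest on few reads. Alternatives covered pseudocounts, filters, scalings, covariates, the replicate number as a block and libraries left out.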

Additional observations from a re-analysis of the deposited data

Results flagged for a closer look

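Normal diet library 4 stood far above the other 4 libraries of its diet in 12 members, by a gap test on each gene in each diet (64 groups of 5, Dbp included). It held Acat2 at 27.8 FPKM (others 6.88 to 11.4), Mvk at 19.8 (5.44 to 9.54), Mvd at 42.3 (8.84 to 16.9), Idi1 at 27.3 (6.1 to 11.6) and Fdps at 92 (23.8 to 40.5). Further along the pathway it held Sqle at 99.4 FPKM (20.3 to 42.6), Lss at 19 (3.55 to 7.46), Cyp51 at 58.7 (13.9 to 25.7), Msmo1 at 122 (29.5 to 50.5), Hsd17b7 at 11.1 (3.14 to 4.56) and Dhcr7 at 40.1 (18.7 to 24). Npc1l1, at 3.44 FPKM against 0.0279 to 0.0611, was the twelfth. Pmvk stood low in pro-inflammatory diet library 1, at 6.05 FPKM against 7.88 to 8.6 in the others. Chance flags about 1 in 20 groups, and genes that vary together are flagged together.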

How the results depend on the processing

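Of 912 values recomputed for 38 results, 863 kept their direction and side of the threshold or, for counts and medians, stayed within 1.5 times or within the spread between replicates. The efflux median (0.01) was among the latter although its sign turned, to -0.055 without normal diet libraries 1, 2 and 3, -0.0068 with Dbp as a covariate and as low as -0.074 with 1 library left out. No diet alternative called a member. The median member log2 fold change (0.35) ran from 0.24 (without normal diet library 3) to 0.54 (without normal diet library 4) with 1 library left out, was -0.026 without normal diet libraries 1, 2 and 3, and 0.17 with Dbp as a covariate. The cause of these changes was not tested. Leaving out normal diet libraries 1, 2 and 3 also gave Hmgcs1 -0.048, Sqle -0.090, Msmo1 -0.11, Sc5d -0.10, Insig1 -0.073, Stard4 -0.0049 and Mylip -0.055. Step medians there were 0.14 (mevalonate), 0.03 (squalene), -0.09 (lanosterol to cholesterol) and -0.03 (transport).

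Abcg8 was at 0.066 after quantile normalization, 0.39 with array weights, 0.0061 with a smooth muscle minus epithelial covariate, and -0.24 to 0.19 with 1 library left out. It was at 0.54 when pro-inflammatory diet libraries 2 and 5 were left out. The efflux median was 0.54 without those 2 libraries. With the smooth muscle covariate Srebf2 was at -0.044 and the control median at 0.01. Mylip (0.12) was at 0.82 with the smooth muscle covariate, -0.0068 with Dbp as a covariate and -0.029 to 0.23 with 1 library left out.

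The median slope on Dbp (0.17) was 0.061 to 0.25 with 1 library left out, lowest without normal diet library 4, 0.030 without normal diet libraries 1, 2 and 3 (2 members called, Abcg8 at 0.94), and 0.38 per unit of other clock genes in place of Dbp. Slopes without those 3 libraries were -0.0020 for Mvk, -0.15 for Lss and -0.10 for Nsdhl. With 1 library left out Nsdhl ran from -0.0014 to 0.19, Srebf2 from -0.049 to 0.032 and Abcg1 from -0.011 to 0.077. Srebf2 had 0.0067 without pro-inflammatory diet libraries 2 and 5, and 0.027 if the diet term was dropped. Genes called against Dbp numbered 2, but 4 with array weights, 5 with no diet term, 7 with other clock genes, 1028 without normal diet libraries 1, 2 and 3, 0 with the replicate block and 0 to 2 with 1 library left out.

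The replicate numbers did not pair the libraries: same-numbered deviations correlated at -0.26 to 0.06. With the replicate block 0 members were called for diet and 0 for Dbp. Leaving out pro-inflammatory diet libraries 2 and 5 and voom on whole reads were chosen after seeing the data. With 5 libraries a group, Npc1l1 and the low Abcg5 and Abcg8 values are limited by reads, and the other members by the spread between libraries.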
